A study of Mus musculus with 6 samples.

Results

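Rev-erbα binding sites at 5 genes for proteins that the liver secretes into blood were described: Alb, Apob, Pon1, Ttr and Apoa1. The members were selected by the positions of the peaks themselves, as every peak whose centre lay in 1 of 5 fixed windows of the mouse build mm9. Results of these data were known when the windows were chosen, so what follows is a description and carries no test. The windows gave 23 of the 11767 peaks in the list for zeitgeber time (ZT) 10, of which 13 were also in a second list of 3579 peaks, whose name calls them DBD-independent (DBD stands for the receptor's DNA-binding domain). The 13 are called DBD-independent below, and that name could not be checked here because no sample was labelled as carrying an altered DBD.

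The study used chromatin immunoprecipitation followed by sequencing (ChIP-seq) with a Rev-erbα antibody on liver from male mice aged 12 weeks on normal chow, without further treatment. The strain is given as C57BL/6 in one label and C57B/6 in another. Of the 6 samples, 3 were labelled as wild type (WT) and 3 as HNF6 KO. By which method HNF6 was removed, from which cells, and whether each sample was 1 animal is not stated in the labels. Both lists were deposited for the series as a whole, and which samples each rests on is not stated. Binding in WT and HNF6 KO livers at these genes was therefore not compared, there is no replicate error for any value, and sequencing depth is unknown.

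The windows covered 590 kb in all. They were on chromosome 5 from 90.83 to 90.91 Mb (Alb), chromosome 12 from 7.91 to 8.08 Mb (Apob), chromosome 6 from 5.09 to 5.2 Mb (Pon1), chromosome 18 from 20.77 to 20.89 Mb (Ttr) and chromosome 9 from 45.98 to 46.09 Mb (Apoa1). In the RefSeq gene table of GRCm38.p6, which was used for names and gene order only, the protein-coding neighbours are Ankrd17 and Afp for Alb, Klhl29 and Ldah for Apob, Ppp1r9a and Pon3 for Pon1, Dsg2 and B4galt6 for Ttr, and Sik3 and Apoc3 for Apoa1. No mm9 annotation was used, so exon, intron and UTR annotation of the peaks is not analysed here.

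Rev-erbα is a nuclear receptor of the circadian clock that represses transcription with the NCoR corepressor and histone deacetylase 3. It can bind DNA directly, at the half-site AGGTCA with an A/T-rich flank, or can be held at chromatin by other factors, and HNF6, a Onecut factor of hepatocytes, is known as one of them. The genes described here are active hepatocyte genes. Alb encodes albumin, the main plasma protein. Apob encodes the structural apolipoprotein of very low density lipoprotein, and Apoa1 that of high density lipoprotein. Pon1 encodes paraoxonase 1, an esterase carried on high density lipoprotein, and Ttr encodes transthyretin, a carrier of thyroxine and of the retinol-binding protein.

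Only 1 of the 13 DBD-independent peaks lay within 1 kb of the point to which its deposited distance refers, beside 1073 of 3579 peaks (30%) of the whole DBD-independent list, and that peak was at Alb. Its centre was 191 bp upstream, so the peak ran from base -266 to base -117 of the point and took in 134 of the 250 bases upstream of it. A point read from the distances can be off by 1 bp. If the RefSeq start of Alb is the same point, these are the first 134 bases of the promoter below, at chr5:90460620-90460869 of GRCm38.p6 on the plus strand. The promoters of Apob (chr12:7977427-7977626, plus strand) and Pon1 (chr6:5193997-5194196, minus strand) are shown as a contrast, since no ZT10 peak lay within 4 kb of their points. They are given from base -250 to base -51 of the RefSeq start. Capitals mark exact matches to the searched motifs, so a stretch close to a motif stays in lower case.
Alb: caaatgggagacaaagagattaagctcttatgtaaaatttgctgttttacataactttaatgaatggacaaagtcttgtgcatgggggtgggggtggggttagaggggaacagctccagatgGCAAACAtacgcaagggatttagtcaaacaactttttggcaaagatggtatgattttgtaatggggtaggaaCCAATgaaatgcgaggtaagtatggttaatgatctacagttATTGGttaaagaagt
Apob: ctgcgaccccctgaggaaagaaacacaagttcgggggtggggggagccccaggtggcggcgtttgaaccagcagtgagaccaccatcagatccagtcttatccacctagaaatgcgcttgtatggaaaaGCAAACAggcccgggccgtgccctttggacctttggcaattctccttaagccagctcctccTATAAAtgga
Pon1: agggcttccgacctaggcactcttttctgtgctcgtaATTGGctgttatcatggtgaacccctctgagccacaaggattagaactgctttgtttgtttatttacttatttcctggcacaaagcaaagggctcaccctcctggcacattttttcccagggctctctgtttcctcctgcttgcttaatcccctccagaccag

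The searched motifs, on both strands, were AGGTCA, its direct repeats with spacings of 1 and 2 bases, the Onecut cores ATCAAT and GTCAAT, the forkhead forms TGTTTAC and TGTTTGC, the HNF1 palindrome, TTGCGCAA (C/EBP), CACGTG (E-box), TATAAA and CCAAT. Promoters on chromosome 18 were left out of the search, so Ttr was not searched. The half-site AGGTCA was not in the 250 bases upstream of any of the 4 starts searched (Alb, Apob, Pon1 and Apoa1). Neither Onecut core was there either. Of these 4 stretches, only that of Alb overlapped a peak, if its RefSeq start is the point read from the distances. Sequences under the other peaks were not read, so the motifs do not describe the Rev-erbα sites. AGGTCA occurs in these 250 bases in 15.8% of the 27025 genes searched, ATCAAT in 7.72% and GTCAAT in 6.35%. TGTTTGC was present in 3 of the 4, Alb, Apob and Apoa1, against 4.93% of all genes. The other forkhead form, TGTTTAC, was in 0 of the 4, against 3.54% of all genes. The direct repeats, TTGCGCAA, CACGTG and the HNF1 palindrome were in 0 of the 4, the last being in only 3 of the 27025 genes. Several motifs were searched in only 4 promoters, and no share was tested. The Alb match, GCAAACA on the printed strand at bases -128 to -122, lies in the stretch under the peak. Apob has the same letters at bases -121 to -115, but its nearest ZT10 peak was 19517 bp from its point. The match thus did not set Alb apart from Apob. CCAAT, in 37.5% of all genes, matched at Alb in bases -56 to -52 and, as ATTGG, in bases -15 to -11, both outside the Alb peak. At Pon1 it matched, as ATTGG, in bases -213 to -209 and, past the printed bases, in bases -23 to -19. TATAAA, in 14.3% of all genes, matched in 1 of the 4, Apob, in bases -60 to -55. Of 56 other secreted liver protein genes in a list, 43 were among the genes searched. TGTTTGC was in 7 of these (16.3%), AGGTCA in 16 (37.2%), ATCAAT in 8 (18.6%) and GTCAAT in 5 (11.6%), but Rev-erbα peaks at those genes are not analysed here. A match is a description of letters and no evidence of binding by a factor.

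All 4 peaks in the Alb window were DBD-independent, against a background of 30.4% of the ZT10 list. Most of them stood among the first 1177 peaks of that list, where 49.3% are DBD-independent. The count of 4 also depends on the window: a ZT10 peak outside the DBD-independent list, at 90913101 to 90913250 and position 6870, lay 3.2 kb above it. That peak was 23260 bp downstream of the Alb point, nearer than 2 of the 4 counted, and a window wider by 20 kb held 5 peaks with 4 DBD-independent. All 4 deposited distances led to 1 point on the plus strand at 90889916, and Alb is on the plus strand in the RefSeq promoter table. The peak farthest downstream, on chromosome 5 at 90898224 to 90898373 and 8383 bp past the point, stood at position 128 of the ZT10 list. It carried 48 and 51 as the 2 whole numbers deposited with each DBD-independent peak, here called first and second value. Their unit is not stated, and they were used only to describe peaks within that list. Only 2.21% of the 3579 peaks had a first value as high as 48.

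The promoter peak of Alb (90889650 to 90889799) had values of 36 and 36 and position 557. A distal peak 46502 bp upstream, at 90843339 to 90843488, had 38 and 47 and position 249. These 3 peaks were all among the highest 5.31% of the list by first value. The remaining Alb peak, 35430 bp upstream at 90854411 to 90854560, was far lower, with 8 and 7 and position 7231. The 4 peaks spanned 55.0 kb.

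Apob had 6 ZT10 peaks, of which 4 were DBD-independent, and none near its start. The 4 distances led to 1 point on the plus strand at 7984484, and Apob is on the plus strand in the RefSeq promoter table. The nearest peak was 19517 bp upstream, on chromosome 12 at 7964892 to 7965041, and was also the highest of the 4, with values of 28 and 31 and position 885. The peak 27197 bp upstream (7957212 to 7957361) had 14 and 15 at position 1928. The peak 57596 bp upstream (7926813 to 7926962) had 17 and 18 at position 2425. The peak 43498 bp downstream (8027907 to 8028056) was the lowest, with 12 and 10 at position 4824.

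The other 2 Apob peaks were in the ZT10 list alone and lay beside the outermost DBD-independent ones. One was 1046 bp from the far upstream peak, at 7927859 to 7928008 and position 4823. The other was 2735 bp from the downstream peak, at 8025172 to 8025321 and position 5553. The Apob peaks thus formed an upstream group and a downstream group, with 60280 bp between their nearest centres.

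Pon1 also had 6 ZT10 peaks with 4 DBD-independent, but 4 of the 6 lay within 6199 bp of its start. The 4 distances led to 1 point on the minus strand at 5143947, and Pon1 is on the minus strand in the RefSeq promoter table. Upstream peaks at -4841 bp (24 and 19, position 1211) and -6199 bp (24 and 22, position 1614) shared the highest first value of the gene. They were on chromosome 6 at 5148713 to 5148862 and at 5150071 to 5150220.

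On the other side of the Pon1 start, the peak 4912 bp downstream, at 5138960 to 5139109, had 20 and 29 and position 1146. Its ratio of second to first value, 1.45, was the highest of the 13, beside ratios of 0.671 to 1.47 in the whole list. A peak of the ZT10 list alone lay 603 bp from it, at 5139563 to 5139712 and position 2637, and another 22422 bp downstream of the point, at 5121450 to 5121599 and position 2797. The farthest upstream peak, at -29780 bp (5173652 to 5173801), was the lowest of the 4, with 8 and 10 and position 7250.

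**Figure D1:**
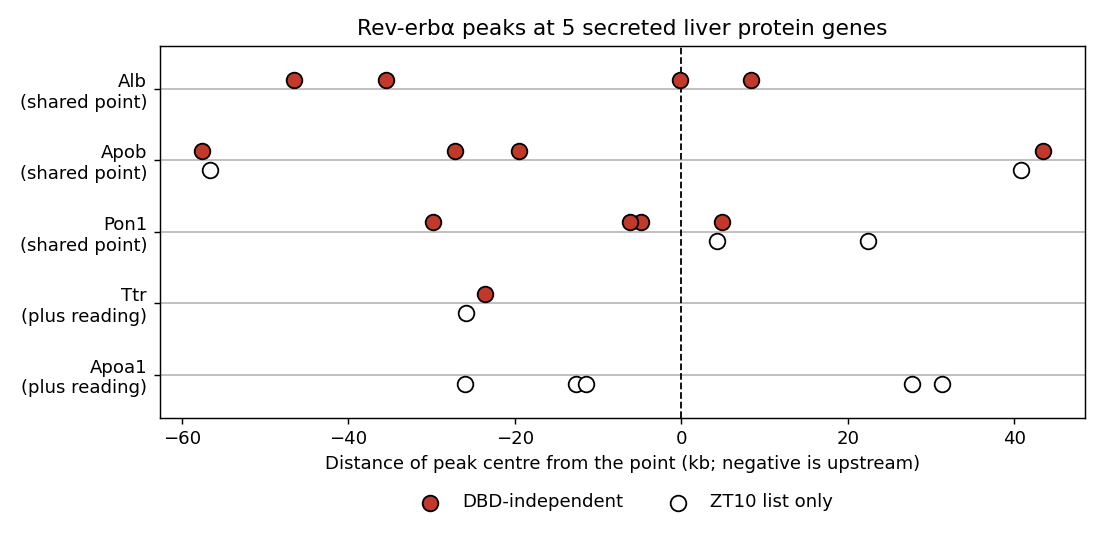
Peak centres at each gene by distance from the point to which the deposited distances refer, in kb, with upstream negative along the gene's strand. Filled circles (drawn slightly higher) are DBD-independent and open circles are in the ZT10 list alone; the 4 peaks of the Alb window are filled and the 5 of the Apoa1 window are open, and the Ttr and Apoa1 points rest on reading 1 peak as plus strand.

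Alb, Apob and Pon1 each had 4 DBD-independent peaks referring to 1 point, which few points in the list had. Of 472 points shared by at least 2 DBD-independent peaks, 14 (2.97%) had at least 4, and 3 of these 14 were the points of Alb, Apob and Pon1. The genes may have been chosen for this, so the number is no finding. Ordered by their highest first value, Alb was number 4 of the 14, Apob shared numbers 7 and 8 with another point at the same value of 28, and Pon1 was number 10. Between their outermost DBD-independent peaks Alb had 0 other ZT10 peaks, as had 9 of the 14 points with Alb counted, whereas Apob had 2 and Pon1 had 1.

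Ttr had the fewest peaks, 2 in a window of 120 kb. The DBD-independent one (chromosome 18, 20800133 to 20800282) was found at position 4570 and carried the values 14 and 13. Its deposited distance was -23544 bp. As no other listed peak shares its point, the strand could not be read from the file. The RefSeq strand of Ttr was not looked up, as promoters on chromosome 18 were left out. The point would be at 20823752 on the plus strand or at 20776664 on the minus strand, and both are inside the window. The other peak, 2317 bp away at 20797816 to 20797965, was in the ZT10 list alone at position 6368.

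At Apoa1, 0 of 5 peaks were DBD-independent (95% Wilson interval up to 43.4%), and the interval includes the 30.4% of the whole ZT10 list. These peaks share a window and are not independent, so the interval covers counting error only and is no test. The Apoa1 peaks were not all late in the ZT10 list. The earliest, on chromosome 9 at 46064318 to 46064467, stood at position 1153, close to the DBD-independent Pon1 peak at position 1146. The others stood at positions 1633 (46024036 to 46024185), 2658 (46025235 to 46025384), 5091 (46067943 to 46068092) and 6933 (46010625 to 46010774). These 5 peaks carry no value or distance in the ZT10 list, so their heights cannot be compared with those at Alb.

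A DBD-independent peak 33.0 kb below the Apoa1 window had a distance that leads into the window on 1 of its 2 readings. It was on chromosome 9 at 45946879 to 45947028, with values of 11 and 11, position 4440 and a distance of -89760 bp. Read on the plus strand, which is that of Apoa1 in the RefSeq promoter table, its point is at 46036714, inside the window. Read on the minus strand it is at 45857194, outside the window, and no second peak shares either point. On the plus reading the 5 Apoa1 peaks would lie 26014, 12603 and 11404 bp upstream and 27679 and 31304 bp downstream. Downstream of Apoa1 lie other apolipoprotein genes, beginning with Apoc3, and which gene each peak is nearest to was not determined.

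**Figure D2:**
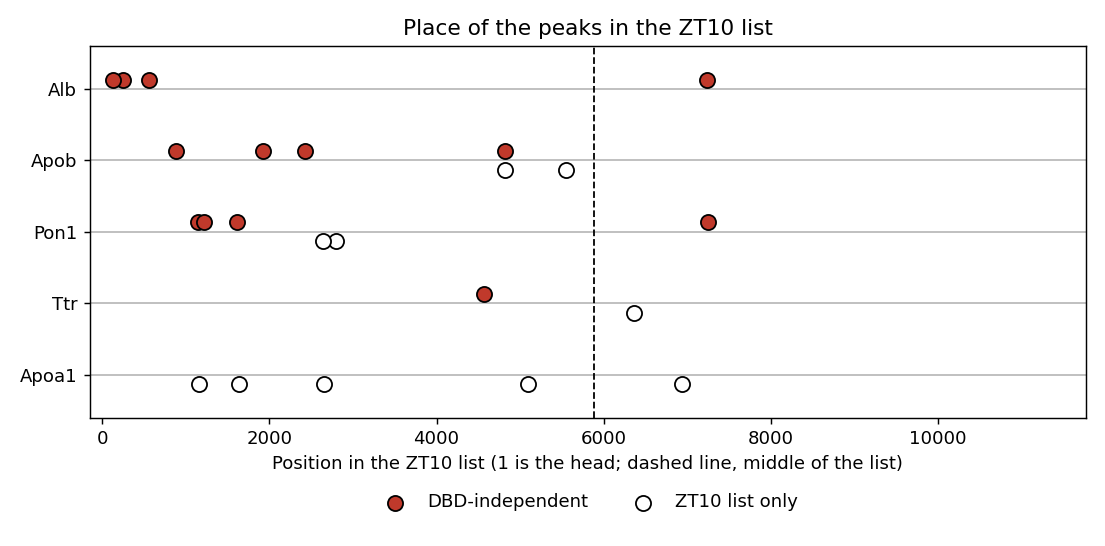
Position of each of the 23 peaks in the ZT10 list, by gene; position 1 is the head of the list and the dashed line marks its middle, at 5884. Filled circles (drawn slightly higher) are DBD-independent and open circles are in the ZT10 list alone; 3 Alb peaks stand at or before position 557 and no peak stands after position 7250.

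Over the 5 genes, 13 of 23 peaks were DBD-independent (56.5%, 95% Wilson interval 36.8 to 74.4%), beside 30.4% of the whole ZT10 list. DBD-independent peaks are more frequent toward the head of that list, where most members stood. In the first 5883 peaks 11 of 19 members were DBD-independent (57.9%), beside 40.7% of all peaks there. With the list cut into 10 bins of equal size, the mean DBD-independent share of the members' bins was 40.0%, which is inside the interval. Several peaks share a gene, so they are not independent, and the interval covers counting error only. The list carries no score. Across its DBD-independent peaks, position and first value had a Spearman's rho of -0.94, a description over peaks of the same lists. The 23 peaks stood early in the list. Their median position was 2637, beside 5884 for the whole list, and none stood after position 7250. Among the first 1177 peaks of the list, where 49.3% are DBD-independent, there were 6 members, of which 5 were DBD-independent. The exception was the earliest Apoa1 peak.

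Where a DBD-independent peak and a peak of the ZT10 list alone were neighbours under 4 kb apart, the DBD-independent one stood earlier in the list in 4 of 4 cases: 2 at Apob, 1 at Pon1 and 1 at Ttr. Over the whole list this held for 59.5% of 476 such pairs, and 4 pairs are too few to tell apart from that share. In all, 14 of the 23 peaks were in 7 pairs under 4 kb, with gaps of 603 to 3625 bp. Pon1 had 1 further pair with both peaks DBD-independent, and Apoa1 had 2 pairs with neither.

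The DBD-independent members were mostly distal and mostly upstream. Of the 13, 8 (61.5%) lay beyond 10 kb of their point, beside 47.2% of the whole DBD-independent list, and the median absolute distance was 23.5 kb, beside 8.7 kb. Of the 12 beyond 1 kb, 9 were upstream (75%), beside 42.4% of all 2506 such peaks. Alb, Apob and Pon1 each had 3 peaks upstream and 1 downstream. The windows set which distances could occur, so these shares depend on where the windows end.

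First values of the 13 ran from 8 to 48 with a median of 20, beside a median of 12 in the whole list. The second value was above the first at 7 of the 13 peaks, equal at 1 and below at 5. In the whole list it was above the first at 25.5% of peaks. The 7 were 2 at Alb, 3 at Apob and 2 at Pon1. The median ratio of second to first was 1.06, beside 0.889 in the whole list. The ratios ran from 0.792 to 1.45, beside 0.671 to 1.47 in the whole list. Whether that list was cut on this ratio is not stated. Since the meaning of both values is unknown, a higher second value points to no genotype.

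**Figure D3:**
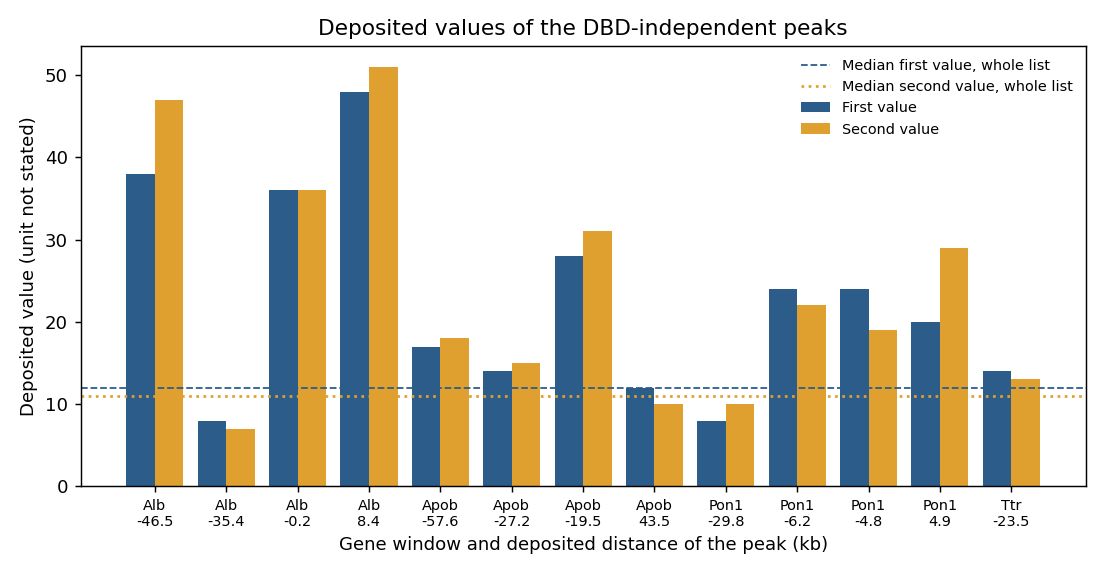
First (blue) and second (yellow) deposited value of the 13 DBD-independent peaks, labelled by gene and deposited distance in kb; unit not stated. The lines are the medians of the whole list, 12 and 11; 3 Alb peaks have first values of 36 to 48 and the other 10 peaks of the 4 genes have 8 to 28.

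The window edges fell in gaps between peaks. The outermost member peaks lay between 11.7 and 89.8 kb inside the edges. Just outside, ZT10 peaks lay 3.2 kb above the Alb window (position 6870), 5.8 kb above the Pon1 window (position 8275) and 13.4 kb below the Apoa1 window (position 6595), and these 3 were not DBD-independent. The nearest peaks beyond the Apob window were 256.2 kb above it and 2972.3 kb below it, and those beyond the Ttr window 61.5 kb below and 156.9 kb above it.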

How the data were processed

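The data were 2 peak lists deposited with a series of 6 liver ChIP-seq samples. The submitters' processing notes name Bowtie, HOMER and the build mm9. The sources used here give no versions or settings and do not name the pooled samples. As deposited, one list gives start and end of each peak (150 bp each) and no score. The other carries, for each peak, a signed distance and 2 whole numbers of unstated unit and meaning. Matching used identical start and end. Points were found by subtracting the distance from the peak centre for the plus strand and adding it for the minus strand, and kept where at least 2 peaks shared one; coordinates are 1-based. Genes, windows and gene lists were chosen with earlier results of these data known, and no test was made. Named in full were, per window, the DBD-independent peak with the highest first value, any within 1 kb of its point, and the earliest other peak; other peaks were added so that each is accounted for. Promoters (250 bases before the start) came from RefSeq, GRCm38.p6. Those on chromosome 18 were left out, so 4 of the 5 genes were searched and Ttr was not. The planned fit of WT against HNF6 KO was not made, as no file used here holds a value per sample. Routines were tested on simulated data. Python 3.11.15, numpy 2.4.6, pandas 2.3.3, SciPy 1.17.1 and matplotlib 3.10.9 were used.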

Additional observations from a re-analysis of the deposited data

How the results depend on the processing

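All 36 alternatives to 7 results stayed within the interval or SD over peaks of the value reported, or within 1.5 times a count. These ranges are wide with 23 peaks, so this says little about stability. Windows widened by 20 kb held 26 peaks, 13 of them DBD-independent (50%), and windows narrowed by 10 kb the same number of 23. The DBD-independent share was 47.4% without the Alb window and 72.2% without the Apoa1 window. The share with the second value above the first was 44.4% without the Apob window. The alternatives for this share and for the upstream share were added after seeing the data. No paired analysis was possible because neither list gives values of single samples. Leaving out replicates and the edgeR and DESeq2 fits were not run for want of such values. Depth per sample is unknown.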
